A study of Homo sapiens with 12 samples.

Results

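A set of 131 genes had their highest normalised read counts in drug-tolerant persister (DTP) BT474 cells at day 9 of lapatinib and far lower ones at every other stage. These genes were selected on their own levels. The mean of the DTP libraries had to be at least 5 normalised read counts and at least 4 times each of the means of the Control, drug-tolerant expanded persister (DTEP) and long-term resistant (LR) libraries. Of 26485 genes listed, 135 met both limits, and 4 of them (CYP1A1, ALPP, PSG4 and CEACAM19) were left out by symbol, as were all other CYP1B1, PSG, MUC and CEACAM entries. All 131 were among the 13794 genes tested. By the RefSeq annotation 106 were protein-coding (80.9%, against 91.2% of all tested genes), 20 were long noncoding RNAs (15.3%, against 5.28%), 3 were transcribed pseudogenes and 2 were not matched.

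BT474 is an established HER2-positive breast cancer cell line with luminal features, and lapatinib is a small molecule that blocks the kinases of HER2 and EGFR. The wild-type cells of this 1 line were kept in lapatinib at 1 µM, and mRNA was sequenced from 3 libraries of each of 4 groups, Control at day 0, DTP at day 9, DTEP at month 6 and LR at month 9. The Control libraries carry the same treatment label as the others but are titled Control, day 0, and were read as not yet exposed. The libraries of a group are described both as technical replicates and as plates kept in parallel, so each p-value below measures the spread between libraries, which may be technical.

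HER2 signals through the PI3K-AKT and MAP kinase pathways. While AKT is active it keeps the FOXO transcription factors out of the nucleus, and when the receptor is inhibited FOXO proteins can enter it and switch on genes of growth arrest, cell death and receptor signalling. Persisters are the few cells that live through the first exposure to a drug, usually without dividing, and expanded persisters are cells that have resumed division in its presence.

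Assigned reads ran from 16383363 to 25030482 per library, so that where a gene had no read its level may still reach 3 reads, or 0.124 to 0.173 normalised read counts, counting error only. All 10 luminal epithelial markers examined (keratins KRT8, KRT18 and KRT19, EPCAM, CDH1, GATA3, FOXA1, ESR1, ERBB2 and XBP1) were at 1 or above in a library of Control, DTP and DTEP, and 9 of them in LR. The exception was ESR1, the oestrogen receptor, which read 149 to 153 in Control, 93.5 to 122 in DTP, 16.7, 6.88 and 0.842 in the DTEP libraries, and 0.0553 to 0.211 in LR. Summed leukocyte markers (10 genes) were 2.67 to 4.08 in Control and 6.28 to 7.90 in DTP, with 2 of the 10 genes at 1 or above in either group. In DTEP and LR that sum was 2.75 to 5.15 and 1.49 to 1.90. Fibroblast markers (10 genes) were represented by COL1A1 alone in all 4 groups, and their sum was higher in the last stages, from 79.9 to 121 (DTEP) and from 98.4 to 130.4 (LR), than in Control (51.3 to 61.9) or DTP (48.4 to 59.3). The endothelial sum (8 genes) was lower in DTP, at 5.97 to 7.41, than in Control, at 13.9 to 15.8, as was the basal sum (8 genes), at 3.65 to 5.24 against 7.73 to 10.8. In DTEP and LR the endothelial sum was 0.898 to 1.87 and 1.14 to 4.37, and the basal sum, with TP63 at 5 or above in a library, was 9.57 to 32.7 and 20.3 to 66.9. The part of these markers in the results was not tested.

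The 3 DTEP libraries stood apart from each other. Summed over the 131 genes, normalised read counts were 1539, 635 and 318 in DTEP replicates 1, 2 and 3, against 1160 to 1211 in Control, 7479 to 7771 in DTP and 298 to 512 in LR. With IGFBP3, the gene with the highest DTP level, left out, the sums of these DTEP libraries were 1110, 508 and 310. Those of the other groups were then 1057 to 1102 in Control, 5965 to 6398 in DTP and 296 to 338 in LR. DTEP replicate 1 was the highest of its group for 117 of the 131 genes and replicate 3 the lowest for 103. In replicate 1, 2 of the genes lay at or below 0.25 of their Control mean. The same was true of 22 genes in replicate 2 and 79 in replicate 3, and of 74 to 87 in the LR libraries. The counts of genes called in the DTEP contrasts are therefore also given without each of these libraries.

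**Figure D1:**
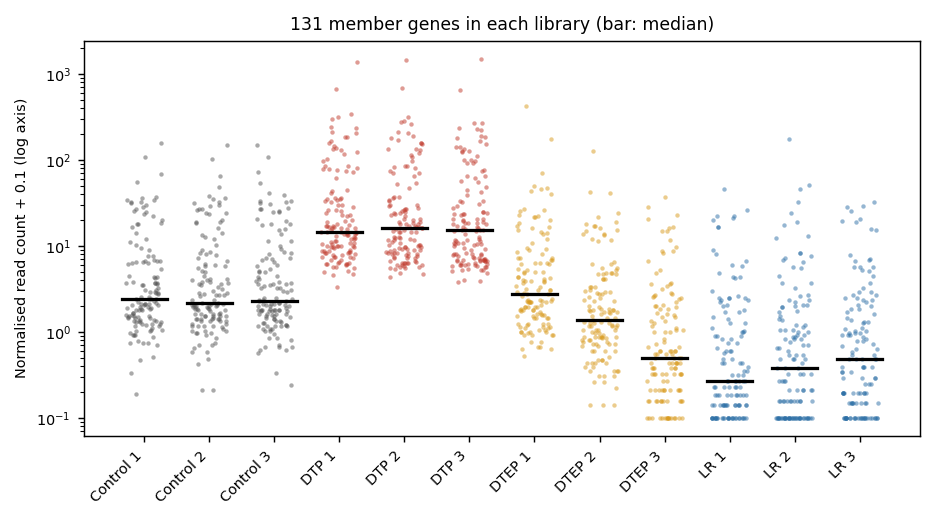
Normalised read counts (with 0.1 added, log axis) of the 131 genes in each of the 12 libraries, 1 point a gene, with the median as a bar. The medians were 2.07 to 2.35 in Control, 14.6 to 16.1 in DTP, 2.68, 1.28 and 0.393 in DTEP replicates 1, 2 and 3, and 0.169 to 0.388 in LR.

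Promoter sequences, running from 250 bases before the RefSeq start of a gene to 50 after it, were found for 90 of the 131 genes and for 10929 of the genes tested (RefSeq, GRCh38.p14). The promoters of 8 genes are printed because these genes carry the main contrasts described below: the pair with the highest DTP levels (IGFBP3 and HSPB8), genes of autophagy and cell death (GABARAPL1, BBC3 and BMF), 1 that returned to the Control level in LR along with BMF (AMY2B), and a pair that was nearly absent in LR (RAI2 and CXCL14). Capitals mark a match to any of 7 motifs searched on both strands (the TATA box on the sense strand alone), and 1 RefSeq start was used for each gene although its reads may come from others.
IGFBP3: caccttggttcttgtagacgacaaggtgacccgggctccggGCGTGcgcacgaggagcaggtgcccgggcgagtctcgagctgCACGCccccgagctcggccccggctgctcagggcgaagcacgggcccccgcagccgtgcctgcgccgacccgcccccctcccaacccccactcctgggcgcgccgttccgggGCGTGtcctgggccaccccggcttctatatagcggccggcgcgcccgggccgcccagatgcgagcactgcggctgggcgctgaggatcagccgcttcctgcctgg
HSPB8: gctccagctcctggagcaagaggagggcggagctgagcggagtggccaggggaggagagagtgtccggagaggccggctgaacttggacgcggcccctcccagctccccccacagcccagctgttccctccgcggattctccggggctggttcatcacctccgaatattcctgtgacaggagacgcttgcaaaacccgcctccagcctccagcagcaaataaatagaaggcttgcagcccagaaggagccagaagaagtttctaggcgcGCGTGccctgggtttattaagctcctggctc
GABARAPL1: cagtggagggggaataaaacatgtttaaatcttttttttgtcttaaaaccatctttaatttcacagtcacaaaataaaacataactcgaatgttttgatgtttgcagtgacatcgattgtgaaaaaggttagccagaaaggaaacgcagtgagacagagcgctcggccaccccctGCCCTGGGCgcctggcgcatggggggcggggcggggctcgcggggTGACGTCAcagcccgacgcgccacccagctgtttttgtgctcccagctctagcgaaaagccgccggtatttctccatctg
BBC3: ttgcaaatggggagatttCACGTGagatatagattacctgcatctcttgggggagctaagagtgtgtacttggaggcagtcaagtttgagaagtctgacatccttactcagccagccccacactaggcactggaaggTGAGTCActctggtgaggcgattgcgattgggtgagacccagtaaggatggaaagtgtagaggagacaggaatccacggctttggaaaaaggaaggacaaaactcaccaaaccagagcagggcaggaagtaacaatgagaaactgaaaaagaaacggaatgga
BMF: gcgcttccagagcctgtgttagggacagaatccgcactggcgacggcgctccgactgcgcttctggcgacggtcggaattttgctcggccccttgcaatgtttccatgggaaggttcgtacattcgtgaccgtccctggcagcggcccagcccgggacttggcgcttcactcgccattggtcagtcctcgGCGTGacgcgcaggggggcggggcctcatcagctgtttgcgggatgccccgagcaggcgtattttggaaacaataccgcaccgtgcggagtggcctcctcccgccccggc
AMY2B: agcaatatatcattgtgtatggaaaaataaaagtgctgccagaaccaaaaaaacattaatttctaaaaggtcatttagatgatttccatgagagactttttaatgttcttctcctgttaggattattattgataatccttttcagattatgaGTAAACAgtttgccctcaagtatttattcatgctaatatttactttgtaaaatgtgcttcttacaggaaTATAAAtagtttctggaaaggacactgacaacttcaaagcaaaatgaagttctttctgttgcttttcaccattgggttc
RAI2: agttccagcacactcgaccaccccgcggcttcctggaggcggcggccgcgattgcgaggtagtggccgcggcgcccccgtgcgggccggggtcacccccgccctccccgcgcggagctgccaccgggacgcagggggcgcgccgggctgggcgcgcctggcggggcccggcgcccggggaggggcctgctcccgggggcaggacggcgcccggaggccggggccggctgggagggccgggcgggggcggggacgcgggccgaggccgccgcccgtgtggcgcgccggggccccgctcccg
CXCL14: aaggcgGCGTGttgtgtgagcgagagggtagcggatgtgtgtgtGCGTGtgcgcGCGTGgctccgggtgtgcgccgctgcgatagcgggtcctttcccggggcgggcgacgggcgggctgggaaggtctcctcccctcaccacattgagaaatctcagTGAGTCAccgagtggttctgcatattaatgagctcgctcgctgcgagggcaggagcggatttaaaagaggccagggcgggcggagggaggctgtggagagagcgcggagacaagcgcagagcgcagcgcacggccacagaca

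The printed windows are chr7:45921223-45921522 (IGFBP3, minus strand), chr12:119178681-119178980 (HSPB8, plus strand), chr12:10212627-10212926 (GABARAPL1, plus strand), chr19:47232618-47232917 (BBC3, minus strand), chr15:40108830-40109129 (BMF, minus strand), chr1:103571339-103571638 (AMY2B, plus strand), chrX:17860856-17861155 (RAI2, minus strand) and chr5:135578942-135579241 (CXCL14, minus strand). GABARAPL1 held the cAMP response element TGACGTCA, with its first base 30 bases before the start, and 1 AP-2 motif. BBC3 held an E-box (CACGTG) and an AP-1 motif (TGANTCA). AMY2B held the FOXO motif TGTTTAC, read on the reverse strand, and a TATA box (TATAAA) 29 bases before the start. IGFBP3, HSPB8, BMF and CXCL14 held the AHR core GCGTG, and no match to the 7 motifs was found in the RAI2 window.

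Over the 90 promoters the FOXO motif was in 3 promoters (AMY2B, PPP2R2B and LINC01341; 3.33%, against 2.24% of the tested genes' promoters), the cAMP response element in 2 (2.22%, against 3.23%), the E-box in 10 (11.1%, against 10.1%), AP-1 in 6 (6.67%, against 4.41%), AP-2 (GCCNNNGGC) in 24 (26.7%, against 32.2%) and the TATA box in 6 (6.67%, against 3.65%). The AHR core, which holds a CpG, was in 33 (36.7%, against 50.6%). The windows had fewer CpG dinucleotides than those of the tested genes: 47 of 90 (52.2%, against 74.9%) had a GC content of at least 55% together with an observed to expected CpG ratio of at least 0.6, and among protein-coding genes 54.1%, against 75.8%. These shares describe the windows and were not tested.

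Because the DTP level chose the genes, the height of the peak is given as a description without a test. The mean DTP level ran from 5.09 to 1451 normalised read counts with a median of 16.2, and the ratio to the next highest group ran from 4.01 to 22.99 with a median of 5.18. The next highest group was Control for 95 genes, DTEP for 27 and LR for 9. Every DTP library was above every other library for all 131 genes, and for 47 (35.9%) the lowest DTP library was at least 4 times the highest of the other 9. Of the 131, 81 (61.8%) passed the limits of the study (a log2 change beyond 2 in either direction, with an adjusted p under 0.05) as higher in DTP than Control, where 1.01% of all tested genes were called higher and 3.9% lower. In DTEP against DTP 113 (86.3%) were called lower, where 7.02% of all tested genes were called lower and 8.13% higher. The rule used both contrasts, so nothing is read from these counts.

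The limits cut through a continuous range. Just inside the 4-fold limit were PAPSS2 (4.01 times the next group), LINC01144 (4.01) and SMPDL3A (4.01), and just outside it were NTN5 (3.9994), ARHGAP24 (3.998) and COLQ (3.996). Just inside the level limit were GPR158 (5.09), MYZAP (5.12) and LINC00304 (5.13), and just outside it KLK11 (4.86), KCNN2 (4.79) and LOC100505549 (4.76). When the rule was applied with the libraries of 1 replicate number left out, 121 to 130 genes met it. In the 4 libraries left out the DTP library was the highest for all of them, and at least 4 times each of the others for 73, 94 and 85 genes. The libraries left out came from the same groups and may be technical replicates. These counts are therefore no independent check of the peak, and nothing is read from them.

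The DTP libraries were close to each other for most of the genes. The highest was at most 1.5 times the lowest for 104 of 131 (79.4%), with a median of 1.27 over the set and 1.26 over the 10578 tested genes with a DTP mean of at least 5. The widest spreads were in LOC100129434 (19.3, 22.8 and 38.8), FAT3, a giant protocadherin (8.402, 12.5 and 16.6), BBC3 (40.8, 28.9 and 20.7), GPR158, a receptor of the nervous system (3.24, 5.92 and 6.104) and CCER2 (9.81, 6.32 and 5.24). LOC100129434 and FAT3 were highest in replicate 3, and BBC3 and CCER2 in replicate 1. Over the whole set replicate 1 was the highest DTP library for 62 genes (47.3%) and replicate 3 the lowest for 79 (60.3%).

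After the peak the genes took different courses. In LR 78 of the 131 (59.5%) had a mean at or below 0.25 of Control, and 62 were at or below 0.1. Among the other 11890 tested genes within the same range of Control means, 12.6% were at or below 0.25. A further 24 of the 131 (18.3%, against 38.2%) lay within a factor of 1.5 of Control. That range was wide, from 0.145 to 153, and the other genes were not matched for level within it. The 131 lay toward its low end, with a median Control mean of 2.24 and an upper quartile of 6.80. The rule also held the Control, DTEP and LR means of the 131 to at most 0.25 of the DTP mean. The other genes faced no such limit. The part of level and of this limit in the shares of this paragraph was not tested, and the shares are given as a description. For 17 genes no read was found in any LR library and for 42 each LR library had 3 reads or fewer, whereas no gene was that low in Control or in DTEP as a group. In DTEP 15 (11.5%, against 10.6%) were at or below 0.25 of Control, a share close to that of other genes, and 58 lay within a factor of 1.5. Without DTEP replicate 1, 2 or 3 the first count was 44, 13 and 6 and the second 26, 55 and 60.

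Tests among Control, DTEP and LR do not involve the DTP libraries that set the peak, although the rule held the mean of all 3 groups to at most 0.25 of the DTP mean. For 3 of the 131 genes a mean at that ceiling would lie more than 2 above Control on the log2(value + 1) scale, so the rule left almost no room for a call of higher in DTEP or LR than Control. The counts of higher genes, and the balance of lower against higher ones, were in large part set by the selection, and nothing is read from them. The contrasts share libraries, so they are set side by side and not compared. By limma 26 of the 131 genes (19.8%) were called lower in LR and 0 higher, where 7.8% of all tested genes were called lower and 5.03% higher. By adjusted p alone 91 (69.5%) were lower and 2 higher, against 32.6% and 30.2% of all tested genes. The median log2 change was -1.10 over the set and -0.03 over all tested genes. All 26 were among the 54 genes with a Control mean of at least 3, the lowest value that can fall by 2 on the log2(value + 1) scale, so the count of 26 is limited by the scale for the other 77. On the recovered reads edgeR called 73 of the 131 lower, against 11.9% of all tested genes, and DESeq2 77, against 12.5%, and both called 0 higher, where 8.18% and 7.53% of all tested genes were. At an unadjusted p below 0.05, 3 were higher by limma.

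DTEP and Control gave a count of lower genes close to the background by limma. Of the 131 genes 8 (6.11%) were called lower, where 6.2% of all tested genes were, and 0 were called higher, where 4.43% were. All 8 were among the 54 genes with a Control mean of at least 3, so this count too is limited by the scale for the other 77. By adjusted p alone 52 (39.7%) were lower and 3 (2.29%) higher, against 28.7% and 29.5%. Without DTEP replicate 3, 1 was called lower, against 5.5% of all tested genes, and 42 were lower by adjusted p alone. Without DTEP replicate 1 the counts were 19, against 7.09%, and 83, and without replicate 2 they were 7, against 6.15%, and 40. Without Control replicate 1 or 3, 5 were called lower. At an unadjusted p below 0.05, 3 were higher by limma. On the recovered reads edgeR and DESeq2 each called 13 lower, against 9.85% and 10.3% of all tested genes. EdgeR called 2 higher (PGM5 and SCNN1G) and DESeq2 called 2 (SCNN1G and LINC01094), where 7.31% and 6.78% of all tested genes were.

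LR and DTEP differed by 8 genes called lower (6.11%, against 0.457% of all tested genes) and 0 higher (against 0.225%). By adjusted p alone 20 (15.3%) were lower and 1 (0.763%) was higher, against 4.31% and 3.04%. At an unadjusted p below 0.05, 3 were higher. EdgeR called 57 lower, against 3.7% of all tested genes, and DESeq2 63, against 4.53%, and both called 0 higher, against 0.515% and 0.545%. By limma the count changed with the libraries kept. Without DTEP replicate 3, 27 (20.6%, against 1.55%) were called lower and 74 were lower by adjusted p alone. Without DTEP replicate 1 these counts were 1 (0.763%, against 0.153%) and 3, and without replicate 2 both were 0 (against 0.0218% called). Without any 1 of the Control, DTP or LR libraries 1 to 3 were called lower. In these bulk libraries a lower value can be fewer cells that hold a transcript or less of it in each cell, and the libraries do not tell them apart.

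**Figure D2:**
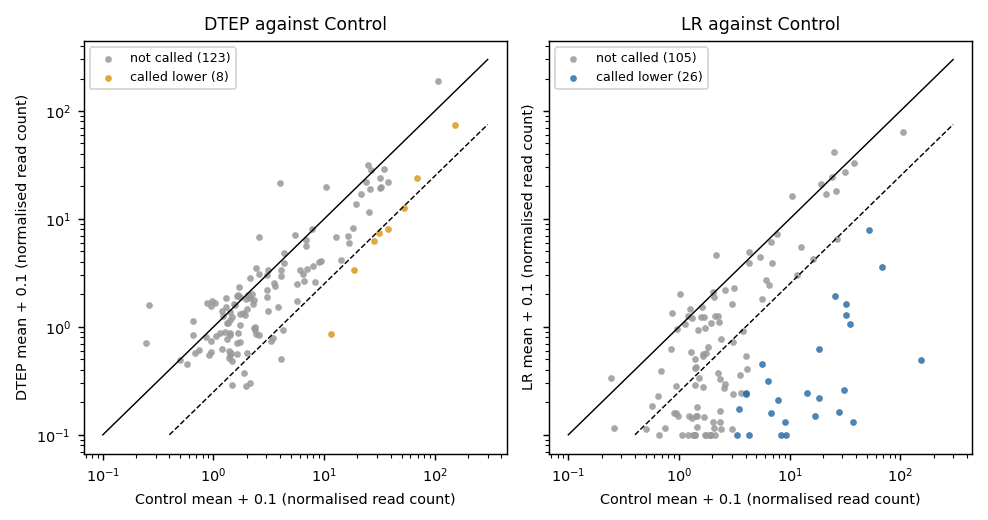
Group means of the 131 genes in Control (horizontal) against DTEP and LR (vertical), in normalised read counts with 0.1 added on log axes, with the line of equal values (solid) and of 0.25 times it (dashed), and coloured points for genes called lower than Control by limma. Of the DTEP means (8 called) 100 lay below the solid line and 58 within a factor of 1.5 of it, and many LR means (26 called) lay at the bottom of the plot.

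**Figure D3:**
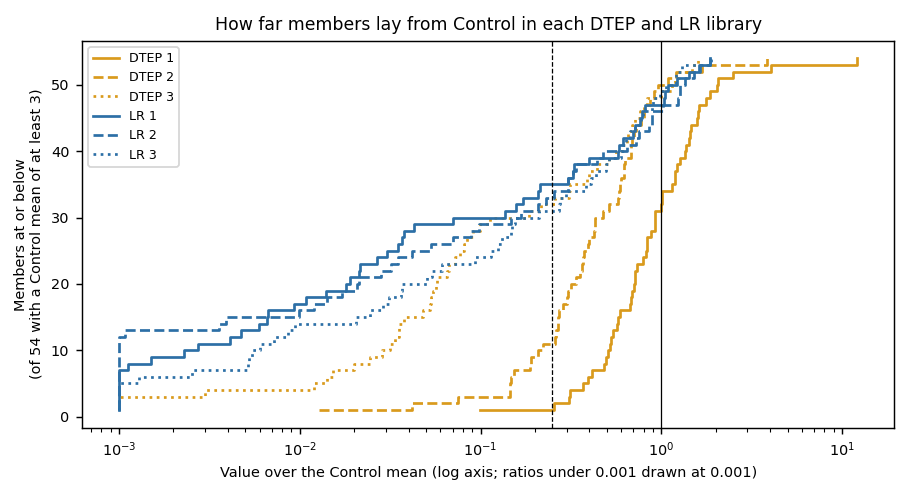
Number of the 54 genes with a Control mean of at least 3 whose value was at or below a given ratio to that mean, drawn for each DTEP and LR library, with a solid vertical line at the Control level and a dashed one at 0.25 of it. DTEP replicate 1 ran near the Control level, replicate 3 ran among the 3 LR libraries at ratios above 0.1, and replicate 2 lay between.

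Growth factor response and growth arrest genes numbered 7, and they were the role group with the median nearest to Control in LR, a log2 change of -0.48, with 0 called lower (against 7.8% of all tested genes) and 3 within a factor of 1.5 of Control. A call of lower needs a Control mean of at least 3, which 4 of the 7 had. The medians of the role groups, here and below, depend on Control level too, since a gene low in Control can fall little on the log2(value + 1) scale. IGFBP3, which binds insulin-like growth factors outside the cell (chromosome 7, 45912245 to 45921272), had the highest DTP level of all, with normalised read counts of 108, 102 and 108 in Control, 1373, 1465 and 1514 in DTP, 429, 127 and 8.64 in DTEP, and 1.901, 174 and 15.8 in LR. The DTEP and LR libraries of IGFBP3 scattered from below to above Control, and neither contrast passed the test (adjusted p = 0.816 and 0.146). PIK3IP1, an inhibitor of PI3K at the cell surface, read 24.7, 23.4 and 26.5 in Control, 205, 189.7 and 181 in DTP, 40.4, 18.1 and 36.8 in DTEP, and 46.4, 46.4 and 32.4 in LR. Its LR libraries were all above Control, and the difference was past the adjusted p limit with a log2 change of 0.71 (SE 0.25, adjusted p = 0.0269), below the limit for a call. IRS2, the adaptor of the insulin and IGF receptors, read 1.196, 1.41 and 1.68 in Control, 14.4, 15.8 and 18.4 in DTP, 2.54, 1.69 and 0.337 in DTEP, and 0.338, 0.277 and 0.0969 in LR. Its DTP mean was 10.7 times the next group, and its LR libraries were all below Control.

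EPOR, the erythropoietin receptor, read 31.5, 30.2 and 32.9 in Control, 147, 131 and 110.3 in DTP, 22.5, 18.7 and 16.1 in DTEP, and 22.1, 32.04 and 28.004 in LR. ING4, a reader of chromatin marks, read 26.6, 24.4 and 27.1 in Control, 119, 113 and 99.9 in DTP, 22.7, 13.3 and 20.8 in DTEP, and 21.2, 12.5 and 20.6 in LR. For EPOR the LR libraries overlapped those of Control and for ING4 they lay below them, and for both the DTEP libraries were below Control. SOCS3, a feedback inhibitor of cytokine receptor signalling, was within a factor of 1.5 of Control in LR, with 2.91, 1.66 and 1.74 against 2.81, 2.72 and 1.96. GADD45G, a stress protein of growth arrest, read 8.61, 6.47 and 4.72 in DTP and 1.43, 1.85 and 1.63 in Control. Of the other genes of a list of PI3K and FOXO response genes, 7 of 38 tested were called higher in DTP than Control and 0 lower, against 1.01% and 3.9% of all tested genes. They were BTG1, C10orf10, CDKN1C, CITED2, FOXO4, TNFSF10 and YPEL3. The cell cycle inhibitor CDKN1C rose from a mean of 0.403 to 5.56 and the death ligand TNFSF10 from 11.6 to 115. FOXO4 itself rose from 6.82 to 37.2 and, unlike the 131, stayed at 43.1 in DTEP and 38.4 in LR. It was not alone in this, as TNFSF10 was at 50.7 in DTEP and 57.7 in LR. BTG1 (Control mean 50.3) was at 173 and 165, CITED2 (22.1) at 81.7 and 62.7, and YPEL3 (14.8) at 57.1 and 54.2. C10orf10 (Control mean 0.826) fell to 5.52 and 3.04, and CDKN1C to 1.97 and 0.889. In the list of IGF axis genes 7 others were tested, and 0 were called in either direction in DTP against Control. The shares of all tested genes, 1.01% higher and 3.9% lower, leave little room for a call among 7. Of the 7, IGFBP4 was called lower in both DTEP and LR than Control, where 6.2% and 7.8% of all tested genes were. Its mean went from 279 (Control) to 643 (DTP), a log2 change of 1.19 (adjusted p = 0.0669). The later means of IGFBP4 were 49.6 (DTEP) and 13.9 (LR).

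Genes of cell death, autophagy and protein quality control numbered 7, of which 6 had a Control mean of at least 3, with 2 called lower in LR (against 7.8% of all tested genes) and 3 within a factor of 1.5 of Control. BMF, a BH3-only protein that starts mitochondrial cell death, read 37.4, 36.4 and 39.6 in Control, 214, 212 and 222 in DTP, 26.1, 15.98 and 23.1 in DTEP, and 22.1, 51.2 and 25.3 in LR. Its DTEP libraries were all below Control, its LR libraries lay on both sides of it, and LR differed from Control by a log2 change of -0.29 (SE 0.26, adjusted p = 0.352). BBC3, or PUMA, another BH3-only protein, read 6.67, 7.23 and 6.75 in Control, 40.8, 28.9 and 20.7 in DTP, 4.88, 2.97 and 2.13 in DTEP, and 4.22, 4.43 and 2.81 in LR, with LR below Control in all 3 libraries. Of the other 12 BCL2 family genes tested, 0 were called in DTP against Control, where 1.01% of all tested genes were higher and 3.9% lower. CASP10, an initiator caspase, read 5.897, 7.21 and 8.29 in DTP and between 0.33 and 1.48 elsewhere.

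HSPB8, a small heat shock protein that works with BAG3 in clearing misfolded proteins, read 159, 152 and 149 in Control, 666, 688 and 647 in DTP, 176, 41.8 and 5.16 in DTEP, and 0.634, 0.166 and 0.388 in LR. DTEP replicate 1 was above the Control libraries, replicate 3 far below them, and LR was nearly empty, with a Control mean 388 times that of LR (log2 change -6.80, SE 0.82, adjusted p = 1.74e-05). GABARAPL1, a member of the ATG8 family that coats autophagosomes, had a cAMP response element near its start in the sequence above and read 18.1, 18.7 and 17.8 in Control, 130.3, 136 and 134 in DTP, 16.8, 6.47 and 0.954 in DTEP, and 0.253, 0.387 and 0.921 in LR. It was called lower in LR (-3.68, adjusted p = 0.000121). Among 31 other autophagy genes tested, CALCOCO1 was called higher in DTP and 0 were called lower, against 1.01% and 3.9% of all tested genes. TNFSF15, a ligand of the TNF family, read 10.99, 12.1 and 11.4 in Control, 43.6, 46.6 and 62.2 in DTP, 1.15, 0.865 and 0.281 in DTEP, and 2.41, 0.609 and 5.67 in LR. It was called lower in DTEP than Control (-2.86, SE 0.40, adjusted p = 6.96e-05) and remained so under every alternative run. In the list of TNF ligands and interleukin receptors that also holds IL2RB and EPOR, 1 of the other 25 was called higher in DTP and 1 lower. The shares of all tested genes were 1.01% higher and 3.9% lower. SMPDL3A, a phosphodiesterase related to acid sphingomyelinase, read 14.8 to 23.5 in the Control, DTEP and LR libraries and 78.3, 80.8 and 98.4 in DTP. None of the 131 was in a list of 20 integrated stress response genes. Of these 20, 0 were called in DTP against Control, where 1.01% of all tested genes were higher and 3.9% lower. Their median log2 change was nonetheless 0.82, against -0.01 over all tested genes. DDIT3, of this list, fell just short of a call (1.996, adjusted p = 3.82e-05). Its mean rose from 36.2 (Control) to 148 (DTP), and was 24.5 at the DTEP stage and 37.1 at the LR stage. ERN1 and VLDLR, also listed, went the other way in DTP (-1.81 and -1.51).

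**Figure D4:**
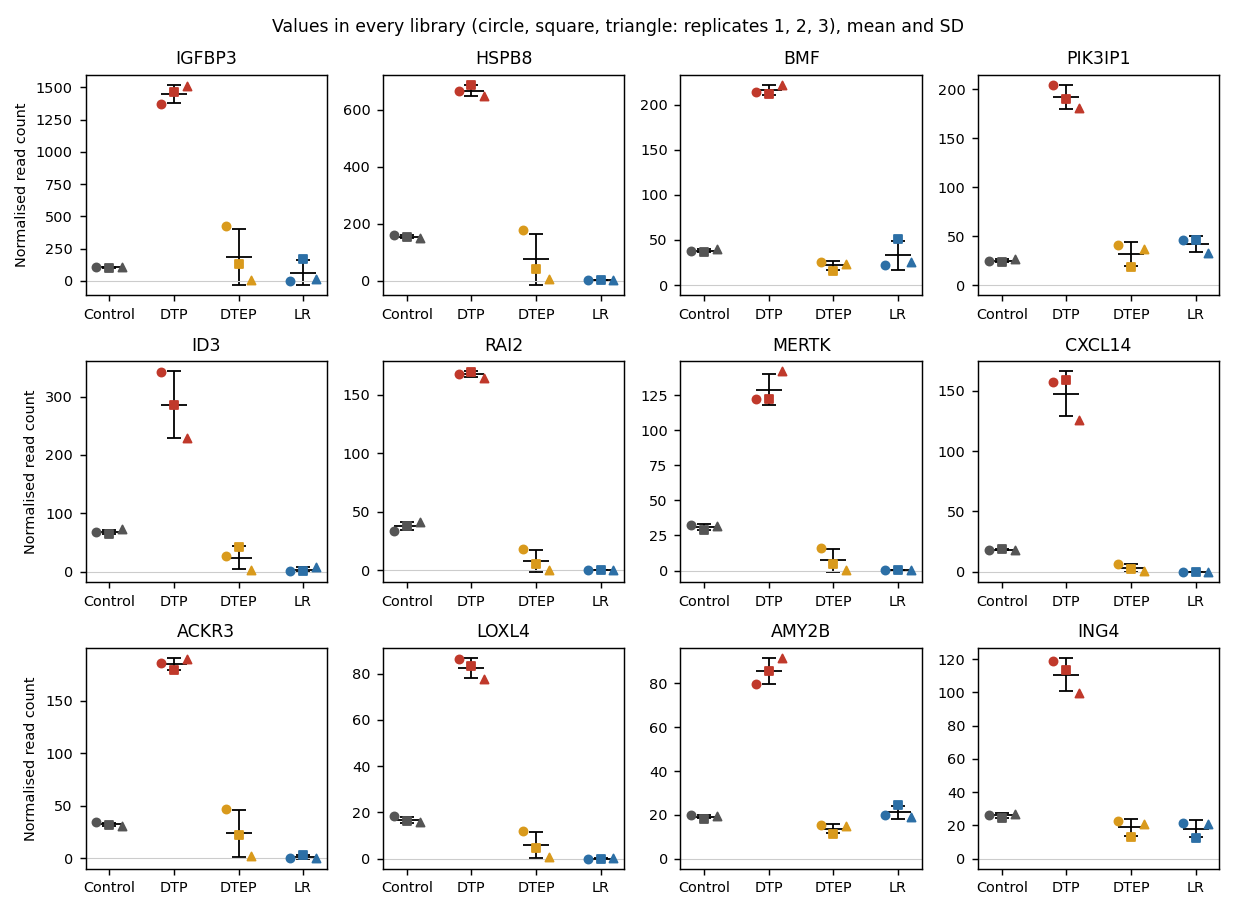
Normalised read counts of 12 of the genes in every library, by group, with the mean and SD of each group (3 libraries). BMF, PIK3IP1, AMY2B and ING4 kept a level of the order of Control in LR, while HSPB8, RAI2, MERTK, CXCL14, ACKR3 and LOXL4 were close to 0 there, and IGFBP3 scattered in DTEP and LR.

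Transcription regulators and developmental signals numbered 9, of which 4 had a Control mean of at least 3, with those 4 called lower in LR (against 7.8% of all tested genes) and a median log2 change of -1.94 between LR and Control, the lowest median of the role groups. RAI2, a nuclear co-regulator, read 33.8, 38.1 and 40.9 in Control, 168, 169 and 165 in DTP, 18.5, 5.52 and 0.112 in DTEP, and 0.0422, 0 and 0.0484 in LR. The LR libraries held 3 reads or fewer, so that Control was at least 227 times higher (log2 change -5.22, SE 0.71, adjusted p = 4.63e-05). ID3, an inhibitor of basic helix-loop-helix factors and a target of BMP signalling, read 68.3, 64.9 and 72.3 in Control, 343, 286 and 228 in DTP, 26.9, 42.6 and 2.41 in DTEP, and 0.634, 1.94 and 7.85 in LR. TWIST1, a helix-loop-helix factor of mesenchymal cells, read 10.2, 8.21 and 9.18 in Control, 74.6, 65.01 and 64.8 in DTP, 8.47, 2.92 and 0.505 in DTEP, and 0 in all 3 libraries of LR. Both were called lower in LR, TWIST1 with no read in any LR library and Control at least 55.4 times higher.

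ATOH8, a further helix-loop-helix factor, read 6.03, 5.71 and 4.98 in Control, 35.4, 33.3 and 30.4 in DTP, 3.01, 1.44 and 0.505 in DTEP, and 0.169, 0.0553 and 0.824 in LR, and was the fourth called lower. CITED4, a partner of the CBP and p300 coactivators, read 33.2, 24.1 and 18.02 in DTP and 0.0422, 0 and 0 in LR. The remaining members were secreted or membrane-bound signals and a cofactor. CHRD (chordin), an antagonist of BMPs, read 10.02, 8.05 and 6.74 in DTP and had a single high LR library (0.127, 3.65 and 0.291). WNT11 read 8.09, 5.38 and 6.104 in DTP, SCUBE2 10.02, 9.23 and 10.8, and VGLL1, a cofactor of the TEAD factors, 7.36, 7.7002 and 5.53, the last with no read in LR. Of 38 other BMP and TGF-beta genes tested, 2 were called higher in DTP (LRRC32 and TGFB2) and 2 lower (BMP7 and SMAD5). The shares of all tested genes were 1.01% higher and 3.9% lower.

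Matrix, adhesion and cytoskeleton genes numbered 19, of which 10 had a Control mean of at least 3, with 6 called lower in LR (against 7.8% of all tested genes) and 14 at or below 0.1 of Control there. FGD3, an exchange factor for CDC42, read 29.8, 26.6 and 27.6 in Control, 185, 158 and 140.2 in DTP, 14.1, 4.08 and 0.337 in DTEP, and 0.0422, 0 and 0.145 in LR. LOXL4, which cross-links collagen, read 18.4, 16.3 and 15.7 in Control, 86.2, 83.2 and 77.6 in DTP, 11.96, 4.78 and 0.898 in DTEP, and 0, 0 and 0.145 in LR. Both were at 3 reads or fewer in LR, with Control at least 168 and 101 times higher. TUBA1A, an alpha-tubulin whose reads can be shared with near-identical tubulin genes and whose value is therefore uncertain, read 32.6, 32.02 and 32.002 in Control, 303, 315 and 267 in DTP, 43.7, 13.8 and 1.85 in DTEP, and 2.28, 0.553 and 1.74 in LR.

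The other genes called lower in LR were NEDD9, a scaffold of focal adhesions (-3.27, adjusted p = 0.000613), SCIN, an actin-severing protein (-2.99, adjusted p = 7.79e-05), SPTB, beta-spectrin (-2.11, adjusted p = 0.00216) and TUBA1A itself (-3.78, adjusted p = 0.000547). CAV1, the main coat protein of caveolae, read 2.02, 2.72 and 2.19 in Control, 44.8, 52.96 and 57.01 in DTP, 7.22, 2.801 and 0.112 in DTEP, and 0.0422, 0 and 0 in LR. COL5A1, a chain of type V collagen, read 2.02, 1.903 and 2.79 in Control, 26.1, 25.4 and 23.4 in DTP, 1.48, 0.947 and 0.225 in DTEP, and 0.0422, 0.0553 and 0 in LR. CDH11, a mesenchymal cadherin, read 2.35, 1.85 and 1.68 in Control, 16.9, 20.3 and 27.8 in DTP, 3.83, 1.36 and 0.393 in DTEP, and 0, 0 and 0.0484 in LR. These 3 had DTP means 15.3, 11.1 and 11.1 times the next group, and LR at or below 0.0553 in every library. Among 25 other mesenchymal and matrix genes tested, TIMP3 was called higher in DTP and FBLN1 lower, against 1.01% and 3.9% of all tested genes.

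ALS2CL, a relative of the exchange factor alsin, read 9.43, 10.2 and 11.2 in Control, 236, 209 and 184 in DTP, 25.6, 17.2 and 16.4 in DTEP, and 16.6, 13.01 and 19.4 in LR. All 3 DTEP libraries and all 3 LR libraries were above Control, with log2 changes of 0.86 (SE 0.20, adjusted p = 0.00277) and 0.60 (adjusted p = 0.0188), both below the limit for a call. Without 1 DTEP library the first was 0.66 to 0.97, with adjusted p from 0.0014 to 0.00894. PGM5, a junction protein related to phosphoglucomutase, read 3.63, 4.08 and 4.05 in Control, 133, 153 and 153 in DTP, 47.7, 15.2 and 1.52 in DTEP, and 0.0845, 0.0553 and 1.16 in LR. Its DTEP libraries ran from below to above Control, and it was called lower in LR than DTEP (-3.21, adjusted p = 0.0323). That call was lost without DTEP replicate 1 (-2.24, adjusted p = 0.082) and without replicate 2 (-3.03, adjusted p = 0.124), and held without replicate 3 (-4.37, adjusted p = 3.53e-05).

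Among the other 8, ITGB7, an integrin beta chain, read 13.99, 14.4 and 11.4 in DTP and lies over ZNF740 on the opposite strand. MYH7B, a myosin heavy chain, read 14.6, 12.7 and 12.04 and shares bases with TRPC4AP and GSS, both far more abundant. The rest were SYNPO, ARHGAP6, AFAP1L2, TNNT2, DAB2 and MYZAP, with DTP means from 5.12 to 25.5 and ratios to the next group from 4.12 to 7.82. DAB2, an endocytic adaptor, was within a factor of 1.5 of Control in LR.

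Ligands, receptors and kinases of immune and vascular cells numbered 13, with 4 called lower in LR (against 7.8% of all tested genes), all of those with a Control mean of at least 3. MERTK, a receptor kinase that recognises dying cells, read 32.7, 28.9 and 31.5 in Control, 122.6, 122 and 142 in DTP, 16.4, 4.74 and 0.617 in DTEP, and 0.0845, 0.111 and 0.291 in LR. ACKR3, a scavenging receptor for the chemokine CXCL12, read 34.2, 31.3 and 30.9 in Control, 186, 179 and 189.5 in DTP, 46.6, 21.8 and 2.47 in DTEP, and 0.211, 3.15 and 0.194 in LR. CXCL14, a chemokine of epithelia, read 18.03, 19.1 and 18.03 in Control, 158, 159 and 126 in DTP, 6.75, 2.68 and 0.281 in DTEP, and 0.0422, 0.221 and 0.0969 in LR. All 3 were called lower in LR than Control (log2 changes -4.79, -4.19 and -4.12, adjusted p = 2.1e-05, 0.000398 and 9.47e-06), and in no alternative was any of these 3 calls lost. The fourth was FCGBP, a mucin-like IgG-binding protein (-2.02, adjusted p = 7.17e-07).

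LYN, a SRC family kinase of haematopoietic cells, read 1.15, 1.14 and 1.07 in Control, 14.5, 16.4 and 18.9 in DTP, 2.201, 1.19 and 0.0561 in DTEP, and 0.0422, 0.111 and 0 in LR. Its DTP mean was 14.4 times the next group. IL2RB, the interleukin-2 receptor beta chain, read 10.6, 11.6 and 10.4 in DTP and 0.127, 0 and 0 in LR. IL18, a cytokine of the interleukin-1 family, read 8.298, 11.9 and 10.1 in DTP and stayed within a factor of 1.5 of Control in LR, as did GPR146. The group also held ENTPD1, an ectonucleotidase, PILRA, an inhibitory receptor, ADM (adrenomedullin), a vasoactive peptide, BDKRB1, a bradykinin receptor, and LY6G6C, with DTP means from 8.88 to 17.5. Of the other SRC and TAM family kinases and their ligands 0 of 10 tested were called in DTP against Control. Of the other chemokines and chemokine receptors 0 of 7 were called higher and 1 lower, CXCL17. The shares of all tested genes were 1.01% higher and 3.9% lower.

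Axon guidance, synapse and neural adhesion genes numbered 13, of which 6 had a Control mean of at least 3, with 4 called lower in LR (against 7.8% of all tested genes) and 7 at or below 0.1 of Control. CBLN2, a secreted synapse organiser, read 35.7, 35.3 and 33.1 in Control, 244, 260.3 and 272 in DTP, 71.2, 13.8 and 1.96 in DTEP, and 0.929, 0.719 and 1.26 in LR. PLXNA4, a semaphorin receptor, read 8.92, 7.83 and 9.92 in Control, 35.4, 37.4 and 48.1 in DTP, 8.99, 2.39 and 0.337 in DTEP, and 0.0422, 0 and 0.0484 in LR. Both were called lower in LR (-4.19 and -3.26, adjusted p = 0.000556 and 0.000147), as were SYNDIG1 and PCP4, each without a read in LR. SEMA3B, a secreted semaphorin, read 11.96, 12.5 and 13.6 in Control, 79.5, 70.6 and 65.2 in DTP, 7.18, 4.65 and 8.25 in DTEP, and 4.18, 5.59 and 6.54 in LR. It kept a level in every LR library that was below Control (-1.10, adjusted p = 0.00067). SEMA7A, a membrane-anchored semaphorin, and NRP2, a co-receptor of semaphorins and VEGF, read 5.48, 5.48 and 5.87 and 6.05, 4.69 and 6.62 in DTP. Of 49 other genes of the axon guidance families tested, 2 were called higher in DTP, the ephrin receptor EPHA4 (24.2 to 215) and SEMA6C (3.35 to 29.8), and 0 lower. The shares of all tested genes were 1.01% higher and 3.9% lower. The remaining members were APBB1, an adaptor of the amyloid precursor protein, DSCAM, a cell adhesion molecule, NPFF, a neuropeptide, NCAM1, the neural cell adhesion molecule, FAT3 and GPR158.

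Channels and transporters numbered 8, of which 1 had a Control mean of at least 3, with that 1 called lower in LR (against 7.8% of all tested genes) and 0 within a factor of 1.5 of Control. ABCA4, a lipid flippase known from photoreceptors, read 14.1, 13.4 and 15.1 in Control, 86.01, 85.4 and 92.9 in DTP, 6.84, 4.78 and 0.449 in DTEP, and 0.0845, 0.0553 and 0.291 in LR, and was the 1 called (-3.74, adjusted p = 1.97e-05). SCNN1G, the gamma subunit of the epithelial sodium channel, read 0.22997, 0.109 and 0.1397 in Control, 7.41, 6.22 and 5.93 in DTP, 3.25, 1.11 and 0.112 in DTEP, and 0, 0 and 0.0484 in LR. It was past the adjusted p limit as higher in DTEP than Control (0.89, adjusted p = 0.0411), with DTEP replicate 3 within the Control range. It no longer passed without DTEP replicate 1 (0.40, adjusted p = 0.137) or 2 (0.91, adjusted p = 0.0805), and passed without replicate 3 (1.37, adjusted p = 0.000334). KCNJ13, an inward rectifier potassium channel that lies within GIGYF2 on the opposite strand, read 4.31, 7.19 and 2.23 in LR and 1.56, 2.55 and 2.003 in Control. The channel subunits KCNK15 (9.57 times the next group), CHRNE (9.34), CACNG1 (8.596) and GRIK5 (6.07), and the mitochondrial carrier SLC25A48, had DTP means from 5.44 to 13.3. In the list of retinoid and steroid genes that holds ABCA4, 26 others were tested in DTP against Control. Of these DHRS3 and HSD17B3 were called higher and HSD17B12 lower, against 1.01% and 3.9% of all tested genes.

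Enzymes and epithelial proteins numbered 14, of which 4 had a Control mean of at least 3, with 1 called lower in LR (against 7.8% of all tested genes). AMY2B, an amylase with close copies in its gene cluster, so that its value is uncertain, read 19.8, 18.3 and 19.6 in Control, 79.8, 85.5 and 91.4 in DTP, 15.2, 11.3 and 14.7 in DTEP, and 20.1, 24.4 and 18.9 in LR. It was the 1 gene of the set past the adjusted p limit as higher in LR than DTEP (log2 change 0.59, adjusted p = 0.0444), and LR and Control differed by 0.12 (adjusted p = 0.517). The difference from DTEP missed the limit without DTEP replicate 1 (0.66, adjusted p = 0.0724) or 2 (0.47, adjusted p = 0.154), and passed it without replicate 3 (0.64, adjusted p = 0.00683). UBE2QL1, a ubiquitin-conjugating enzyme, had no read in LR and was called lower (-3.20, adjusted p = 0.000119). B3GNT7, a glycosyltransferase, read 0.414, 0.326 and 0.466 in Control, 8.61, 8.84 and 6.91 in DTP, 0.909, 0.206 and 0.0561 in DTEP, and 0.0422, 0 and 0 in LR, a DTP mean 20.2 times the next group and the second largest ratio of the set.

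Proteins of the skin surface and its secretions were KLK10 and KLK12, serine proteases without a read in LR, TGM1, the transglutaminase of the cornified envelope, and KRTAP5-10, a hair keratin-associated protein with close copies. They read 13.3, 12.4 and 10.7, 9.71, 9.53 and 5.82, 16.6, 18.2 and 15.03 and 5.64, 5.63 and 5.13 in DTP. With LY6G6C they were in or near a list of epidermal genes of which 0 of the other 9 tested were called in DTP against Control. The shares of all tested genes were 1.01% higher and 3.9% lower. The median log2 change of these 9 was nonetheless 0.87, against -0.01 over all tested genes. PAPSS2, which makes the sulfate donor PAPS, read 2.35, 2.66 and 2.38 in Control, 23.1, 25.1 and 33.3 in DTP, 14.5, 5.44 and 0.393 in DTEP, and 0.127, 0.387 and 0 in LR, and DTEP replicate 1 came closest to the DTP libraries. The others were NATD1, GUCA1B, GSTM2, PLIN1 (perilipin, a coat protein of lipid droplets), PPP2R2B (a regulatory subunit of the phosphatase PP2A) and GGTA1P, with DTP means from 5.57 to 34.5. Of these NATD1 and GUCA1B lay within a factor of 1.5 of Control in LR.

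**Figure D5:**
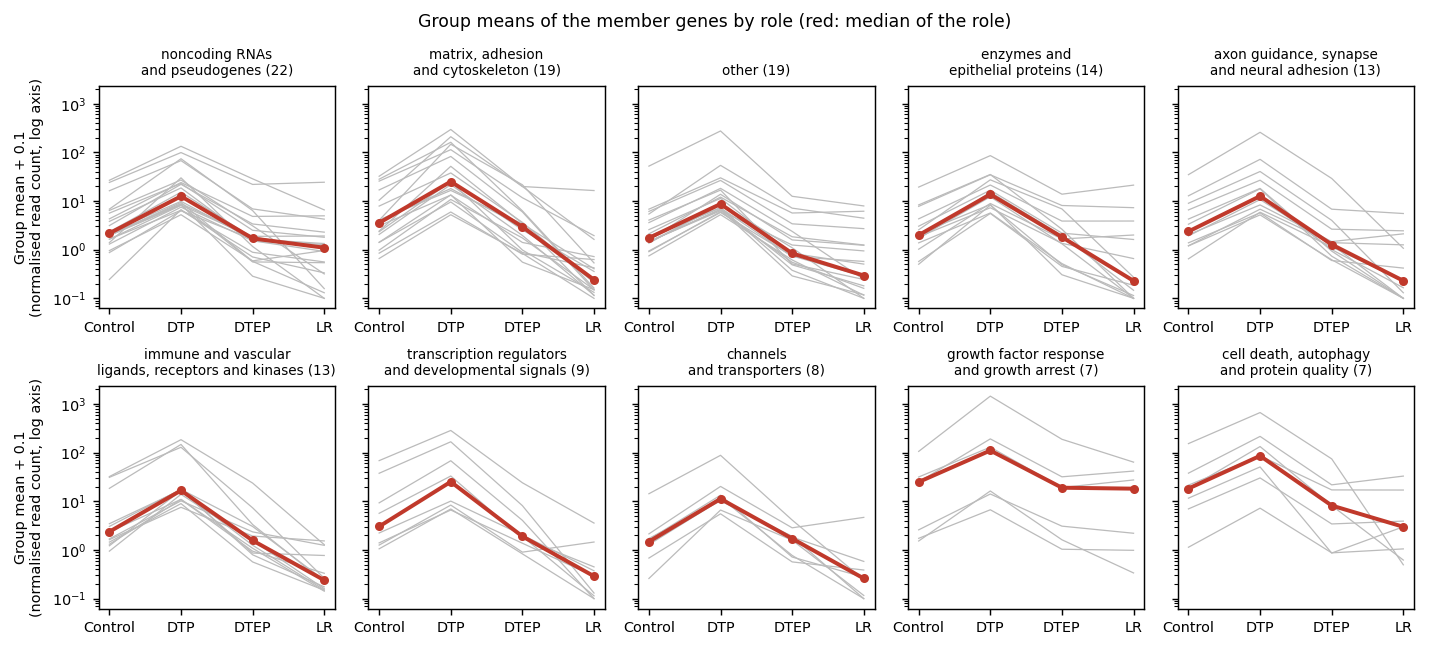
Group means of the 131 genes in normalised read counts (0.1 added, log axis) by role, 1 grey line a gene and the median of the role in red, with the number of genes in brackets. The median falls below Control in LR in every role, least in growth factor response and growth arrest.

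Noncoding RNAs and pseudogenes numbered 22, of which 9 had a Control mean of at least 3, with 2 called lower in LR (against 7.8% of all tested genes) and 6 within a factor of 1.5 of Control. A2MP1, a pseudogene of alpha-2-macroglobulin, had the largest ratio of the set, 22.99 times the next group, with 1.33, 1.305 and 1.26 in Control, 30.1, 30.3 and 29.2 in DTP, 1.77, 1.19 and 0.225 in DTEP, and 0 in all 3 libraries of LR. UCA1, a long noncoding RNA first described in bladder cancer, read 7.45, 5.49 and 7.22 in Control, 72.2, 74.3 and 74.8 in DTP, 13.7, 4.57 and 0.449 in DTEP, and 0.127, 0 and 0.0484 in LR. It was called lower in LR with Control at least 40.5 times higher. LINC01094 read 5.64, 7.404 and 6.56 in DTP and 0.09199, 0.109 and 0.233 in Control, 10.8 times the next group. DSCAM-AS1, a long noncoding RNA of luminal breast cells, read 28.4, 26.9 and 24.5 in Control, 138, 136 and 126 in DTP, 49.7, 24.1 and 11.7 in DTEP, and 5.703, 8.08 and 5.62 in LR. All 3 LR libraries were below Control (-1.90, adjusted p = 0.000707). LOC284454, which spans the MIR23A, MIR27A and MIR24-2 hairpins, and MIR503HG, which spans MIR503 and shares 17 bases with MIR424, read 75.99, 70.9 and 55.7 and 9.603, 10.2 and 7.89 in DTP. GATS, with close copies, read 22.5, 24.2 and 25.3 in Control, 98.7, 97.4 and 101 in DTP, 19.999, 16.97 and 28.5 in DTEP, and 26.2, 17.3 and 29.1 in LR, level in all groups but DTP. Others within a factor of 1.5 of Control in LR were TMEM44-AS1, LOC101927178, LOC100507373, LINC01341 and LINC00304.

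The other genes numbered 19, of which 6 had a Control mean of at least 3, with 2 called lower in LR (against 7.8% of all tested genes). DFNB31 (WHRN, whirlin, a scaffold of hair cells and photoreceptors) read 54.8, 47.9 and 53.4 in Control, 313, 274 and 238 in DTP, 16.03, 11.5 and 9.71 in DTEP, and 8.998, 7.64 and 6.83 in LR. It was called lower in both DTEP and LR than Control (-2.01 and -2.59, adjusted p = 2.07e-06 and 2e-07), with DTEP libraries that lay close together. ABTB1 read 62.5, 54.4 and 44.97 in DTP and 0.885 in LR replicate 2, against 5.62 to 6.51 in the other LR libraries. The DTP means of the 19 ran from 5.14 to 275.

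The 8 genes called lower in DTEP than Control were RAI2, TNFSF15, FGD3, MERTK, CXCL14, ID3, HSPB8 and DFNB31, with log2 changes from -2.89 to -2.01. Replicate 3 was the lowest DTEP library for each of these 8, and without it TNFSF15 alone was still called. DFNB31, CXCL14, RAI2, FGD3 and MERTK then had log2 changes of -1.86, -1.86, -1.77, -1.72 and -1.68, short of the limit for a call, with adjusted p from 3.27e-06 to 0.00122. ID3 and HSPB8 were at -0.99 and -0.83 (adjusted p = 0.113 and 0.105). The 8 called lower in LR than DTEP were HSPB8, PGM5, ACKR3, CBLN2, LOXL4, MERTK, UCA1 and GABARAPL1, with adjusted p from 0.0103 to 0.0464, and with the 6 libraries of LR and DTEP alone in the fit the adjusted p of 7 of them was 0.301.

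The genes were spread over the genome, with 129 of the 131 placed on GRCh38.p14. The largest numbers were on chromosomes 19, with 13 (1.3% of its tested genes), and 11, with 11 (1.39%). The highest shares were on chromosomes 21 (3 genes, 2.16%), 9 (9 genes, 1.61%) and 20 (6 genes, 1.59%). The lowest share of a chromosome that held any was 0.202% (chromosome 4), and the whole set was 131 of 13794 tested genes. Adjacent here means the nearest tested gene on either side, with untested genes passed over, so that gaps could be wide (6209436 bases between CDH11 and GOT2). Of 245 adjacent genes outside the set, 1 (STOM) was called higher in DTP than Control and 9 were called lower, against 1.01% and 3.9% of all tested genes. Adjacent pairs within the set involved 11 genes. CXCL14 and SLC25A48 lie head to head on chromosome 5 with 180 bases between their RefSeq starts, so that the CXCL14 window printed above also holds the start of SLC25A48, ING4 and ACRBP lie 2868 bases apart on chromosome 12, and DSCAM, DSCAM-AS1 and PCP4 lie together on chromosome 21. NCAM1 and LOC283140 are neighbours among the tested genes, with a gap of 598885 bases, and CCDC85A overlaps LOC100129434.

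Overlap limits some of these values. The libraries were stranded but were counted with settings that ignore strand, so strand was not used to assign reads where genes overlap. Overlap was taken over whole gene spans and not exons, and for some pairs, such as KCNK15 and RIMS4, no strand was found. How many reads of a gene this affects was not tested. A total of 44 of the 131 genes overlap another listed gene, and 19 overlap one with a DTP mean of at least 5. Examples are CHRNE (DTP mean 5.44) over MINK1 (205), GRIK5 (10.6) over ZNF574 (44.0), ITGB7 (13.3) over ZNF740 (125), KCNJ13 (20.1) within GIGYF2 (171), KCNK15 (11.7) over RIMS4 (32.7), and DSCAM (10.6) over DSCAM-AS1 (133). GSTM2, FAHD2CP and FAM209B have near-identical copies and are uncertain for the same reason as the copies named above.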

How the data were processed

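The authors made stranded mRNA libraries, aligned reads to hg38 with Rsubread and counted them over RefSeq gene models with default settings. The deposited table holds a normalised signal for each gene and library, which equals CPM of the library size times a trimmed-mean factor. All 199680 values above 0 were whole multiples of 1 read within 1e-06, so whole reads were recovered (100%). These values are called normalised read counts. Groups and replicate numbers come from the labels.

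Log2(value + 1) was fitted with limma 3.58.1 (R 4.3.3; moderated variances with a trend, all 12 libraries, no covariates) for genes at 1 or above in at least 3 libraries. P-values were two-sided and adjusted by Benjamini-Hochberg over the 13794 genes of a contrast, and calls needed an adjusted p under 0.05 with a log2 change beyond 2 in either direction, as in the study. Adding 1 understates changes of low genes. A fold against a group at 3 reads or fewer in every library is a lower bound against 3 reads in the shallowest library of that group. The alternatives were edgeR 4.0.16 and DESeq2 1.42.0 on the recovered reads, other pseudocounts, filters, scaling and limits, the replicate block and leaving out libraries. Scripts were tested on simulated data.

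The genes, role groups, 14 gene lists and motifs were chosen with earlier results of these data known, some lists after reading the gene names of the study. Genes named were the 12 with the highest DTP mean, the 12 with the largest ratio, up to 8 called in each contrast and direction, the members of a list, those at the limits and the 5 with the widest DTP spread. Others are named within their role group. The result of the channel gene list is not reported here. Gene models were matched to RefSeq on GRCh38.p14, the build of hg38. Replicate numbers were not taken as pairs, since same-numbered libraries did not deviate together (correlations from -0.44 to 0.36 across genes).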

Additional observations from a re-analysis of the deposited data

How the results depend on the processing

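The number of genes that meet the rule was 250 with a 3-fold and 70 with a 5-fold limit, and 268 with a level limit of 1 and 87 with a limit of 10. It was 139 with medians, 148 with median-of-ratios scaling, 131 with recomputed factors and 120 to 136 with 1 library left out. The count of genes lower in LR than Control was 75 and 46 with pseudocounts of 0.1 and 0.5, 73 by edgeR, 77 by DESeq2 and 68 with a log2 limit of 1, and 26 to 29 with 1 library left out. Lower in DTEP than Control were 19 and 13 with those pseudocounts, 13 by edgeR, 13 by DESeq2 and 30 with the log2 limit of 1, and 1 to 19 with 1 library left out. The low end was without DTEP replicate 3 and the high end without DTEP replicate 1, and without Control replicate 1 or 3 the count was 5. Higher in DTEP than Control were 2 by edgeR, 2 by DESeq2 and 0 to 1 with 1 library left out. The least stable count was that of genes lower in LR than DTEP: 32 and 16 with the pseudocounts, 2 without a filter, 0 with the 6 libraries alone, 57 by edgeR, 63 by DESeq2, 15 with the log2 limit of 1, and 0 to 27 with 1 library left out. That count was 1 to 3 whichever library other than DTEP replicate 2 or 3 was left out. With the replicate block that count was 5, the count lower in DTEP than Control was 7 and the count lower in LR than Control was 26. The cause of these shifts was not tested, except that a smaller pseudocount admits genes of low Control level by construction. Shares of all tested genes are not given for the other pseudocounts, filters and limits or for the replicate block. The same holds for the counts by adjusted p alone without 1 DTEP library. Those counts of the 131 are therefore not set against other genes, and nothing is read from them about the set. Of 523 values of the 24 gene results named by contrast, 404 stayed past the limits, 119 did not and 0 changed sign, and 5 without an adjusted p from DESeq2 were left out. The numbers are limited by 3 libraries a group, by the spread within DTEP, and by counts of a few reads for many of the genes in LR.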
